A study of Mus musculus with 203 samples.

Results

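Of the mouse nucleus ambiguus neurons profiled singly by full-length RNA sequencing, which comprised 52 laryngeal, 53 ACP and 98 ACV neurons in the deposited annotation, the 52 laryngeal neurons were divided by whether they held any read of Uts2. Uts2 was detected in 32 of them (at least 1 read) and had 0 reads in the other 20. All 52 came from wild-type C57BL/6 mice (C57BL/6NCrl in the study's methods) whose cricothyroid muscle was injected on postnatal day 1 with fluorescent cholera toxin B, a tracer that motor axon terminals take up and carry back to the cell body, and the labeled cell bodies were aspirated one by one from brainstem slices on postnatal days 2 to 4. The ACP and ACV neurons, both types traced from the heart, are given only for comparison. The labels do not say which animal a neuron came from, so neurons were not treated as replicates: each value below describes these neurons, its SD is the spread between neurons, and no p-value was computed.

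Uts2 encodes the precursor of urotensin II, a short cyclic peptide known for its action on blood vessels and found in brainstem and spinal motor neurons. Its precursor is cut in dense-core vesicles, and the peptide acts through Uts2r, a receptor coupled to Gq and phospholipase C. Motor neurons of the nucleus ambiguus that supply the larynx release acetylcholine onto muscle and carry further peptides, among them the calcitonin gene-related peptides made from Calca and Calcb. Levels are given as counts per 10000 counts outside Rn45s, the ribosomal RNA gene that held most of the counts of a typical neuron (mean 55.1% with Uts2 and 63.3% without).

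Before any comparison, the neurons were checked against the markers of a cholinergic motor neuron: Chat (acetylcholine synthesis), Slc18a3 (vesicular acetylcholine transporter), Slc5a7 (choline uptake), the transcription factor Isl1, and the neurofilament-like gene Prph. In 7 of the 52 neurons the 5 markers summed to under 10 per 10000, between 0.53 and 9.90, while the other 45 lay between 19.5 and 94.9. The 7 were unevenly placed: 6 of the 20 neurons without Uts2 but 1 of the 32 with it. Among the cardiac neurons, 3 of 53 ACP and 4 of 98 ACV neurons fell under the same value.

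These 7 neurons went against their label on the laryngeal genes too. Calca had a median of 0.11 per 10000 in them, highest 1.57, against a median of 15 in the other 45, and Calcb had a median of 0 against 12.6. Ret, which encodes the signaling receptor for the glial cell line-derived neurotrophic factor family, had a median of 0.17, highest 1.62, while no neuron of the 45 was under 2.62. All 7 held reads of Gad1 and of Gad2, the GABA-synthesis genes (medians 0.98 and 1.94 per 10000, against 0.029 and 0.091 in the 45). Slc17a6, a vesicular glutamate transporter, was in 6 of 7 (median 3.31 against 0.64). Such reads were common in the 45 too: Gad1 in 25, Gad2 in 32 and Slc17a6 in 37. The highest Gad1 and Slc17a6 levels lay in the 45 (5.71 and 9.84, against 4.13 and 6.80 in the 7). Apoe, an astrocyte-enriched gene, had a median of 17.1 in the 7 and 9.37 in the 45. Rn45s held 40 to 91.5% of counts in the 7, against means of 54.4% (with Uts2) and 60.1% (without) in the 45. The source of the Gad1, Gad2 and Slc17a6 reads was not tested. Apart from 1 neuron with 118492 counts outside Rn45s and 3215 detected genes, the 7 had 6959 to 12373 detected genes. The main comparisons are therefore given over all 52 neurons and again over the 45 neurons with motor neuron markers (31 with Uts2 and 14 without), a division chosen after the data were seen; values with no such mention are over the 52.

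**Figure D1:**
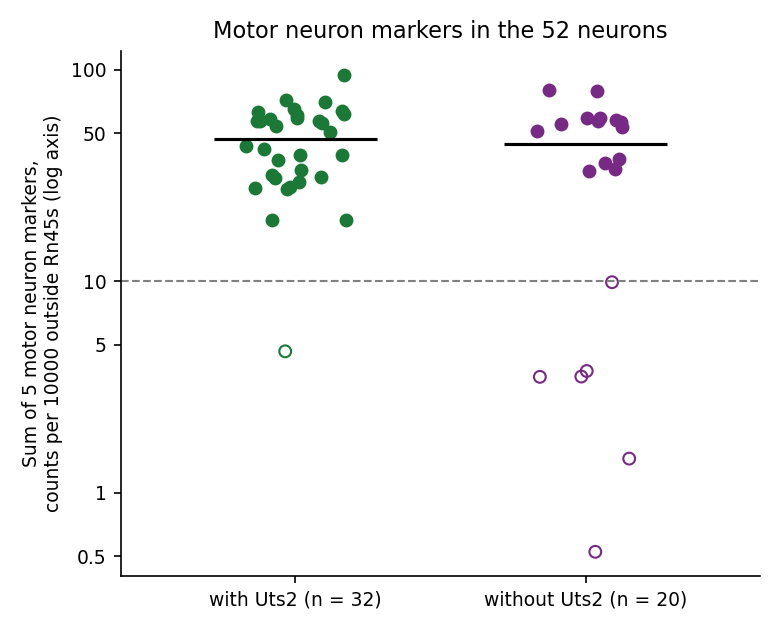
Summed level of Chat, Slc18a3, Slc5a7, Isl1 and Prph in each laryngeal neuron (vertical log axis, counts per 10000 outside Rn45s) by Uts2 group; each point is a neuron, black bars are medians, and the dashed line is at 10. The 7 open points under the line, 6 of them without Uts2, lie apart from the 45 filled points between 19.5 and 94.9.

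The share of laryngeal neurons with Uts2 was well above the cardiac background. Uts2 is itself among the laryngeal genes that the study picked by comparing these same neurons, so the excess is no independent evidence. Uts2 reads were present in 61.5% of laryngeal neurons (32 of 52, exact binomial 95% interval 47 to 74.7%), against 9.43% of ACP neurons (5 of 53) and 8.16% of ACV neurons (8 of 98). The cardiac neurons were the deeper ones, with a median of 1115375 counts outside Rn45s against 560892 in the laryngeal neurons. Over neurons with motor neuron markers the shares were 68.9% (31 of 45, 53.4 to 81.8%), against 8% of ACP (4 of 50) and 8.51% of ACV neurons (8 of 94). These intervals cover counting of neurons only, and all laryngeal neurons were traced from 1 muscle.

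Uts2, at chr4:150997097-151001810 on the plus strand of mm10 and sharing no exon with another annotated gene, spanned a wide range among the 32 neurons. Reads ran from 1 to 507 with a median of 36.5, and levels from 0.016 to 8.38 per 10000 with a median of 0.78 (mean 1.53 ± 2.28 SD, n = 32). Just inside the rule lay neurons with 1, 2 and 5 reads, and just outside it the 20 with 0. Only 3 neurons held 5 or fewer reads, 17 held 6 to 49, and 12 held 50 or more. The 3 neurons with the most reads carried 43.3% of all 2422 Uts2 reads, and the top 8 carried 71.7%. At a stricter minimum of 10 reads, 26 laryngeal neurons remained, against 7 cardiac ones.

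Depth outside Rn45s was similar on both sides of the split. Counts outside Rn45s ran from 181910 to 1821510 in the neurons with Uts2 (mean 630638 ± 338252) and from 118492 to 1345408 in those without (571887 ± 274416), and the ranges overlapped almost fully. In 53% of all pairs of a neuron with and a neuron without Uts2, the neuron with Uts2 was the deeper; this pair share is 50% where the groups overlap evenly. Detected genes numbered 7397 ± 1663 with Uts2 and 7366 ± 2408 without (pair share 51.6%). After thinning to 260000 counts the difference in means, with minus without Uts2, was -241 (pair share 48.3%). Over the 45 neurons the counts outside Rn45s had a pair share of 50%, but detected genes numbered 7395 ± 1690.5 with Uts2 and 6797 ± 1841 without (pair share 61.3%), and 461 more with Uts2 after thinning to 260000 counts. Ordered by depth, the shallowest 18 neurons held Uts2 in 61.1%, the next 17 in 58.8% and the deepest 17 in 64.7%. Thinned to 260000 counts, which left out 2 neurons of each group, 29.1 of 48 neurons (60.7%) were expected to keep a Uts2 read, against 62.5% unthinned.

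The 20 neurons with 0 reads were deep enough for most of the Uts2 levels seen in the 32 to have given reads. A count of 0 allows up to 3 reads, which in these neurons corresponds to 0.022 to 0.25 per 10000 (median 0.055). Of the 32 neurons with Uts2, 22 were above the highest of these limits and 31 were above their median. At the median level of the 32 neurons, the totals of the 20 would have yielded 9.29 to 105.5 reads each. Pooled, the 20 neurons allow at most 0.0026 per 10000, against a pooled level of 1.20 in the 32. These limits cover counting error only, since reads without molecular identifiers are not independent molecules.

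**Figure D2:**
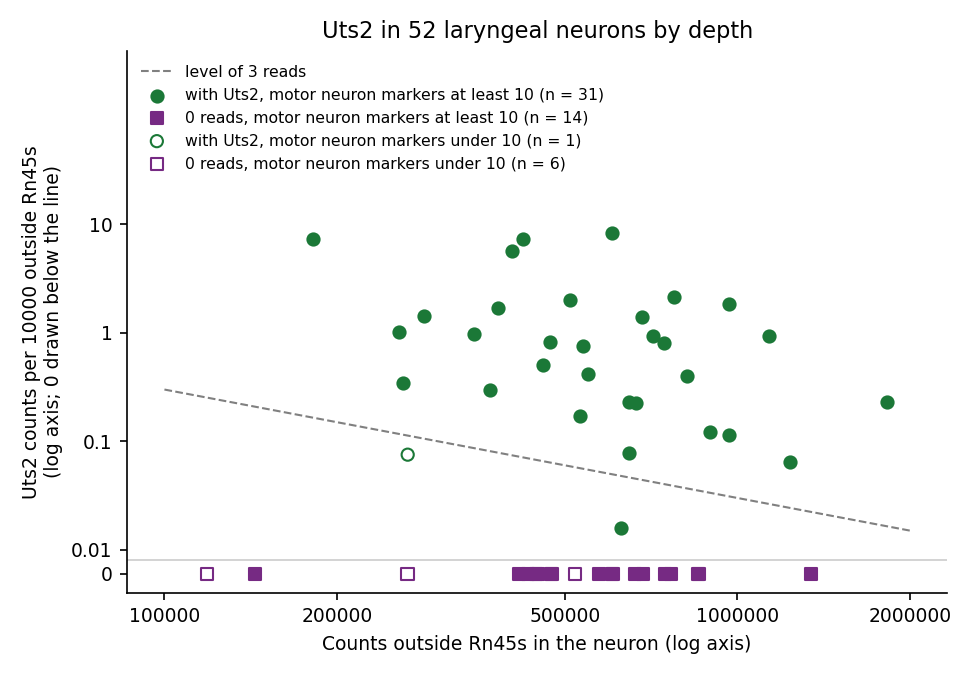
Uts2 level (vertical log axis, counts per 10000 outside Rn45s, with 0 drawn below the line) against counts outside Rn45s (horizontal log axis) in each of the 52 neurons; green circles have Uts2, purple squares have 0 reads, and open symbols are the 7 neurons low in motor neuron markers. The squares span nearly the same depths as the circles, and 31 of the 32 circles lie above 0.055 per 10000, the median level that 3 reads give in the neurons without Uts2.

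Other library measures moved with the split. Total counts, Rn45s included, averaged 1405240 ± 523571 with Uts2 and 1587010 ± 440031 without (pair share 35.9%). Over the 45 neurons their pair share was 41.2%. The share of counts on Rn45s was 55.1 ± 15.4% with Uts2 and 63.3 ± 15.3% without (pair share 34.7%), and 54.4 ± 15.1% against 60.1 ± 13.3% over the 45 neurons. Of the 17 neurons richest in Rn45s, 41.2% held Uts2, against 72.2% of the 18 poorest. Apoe, an astrocyte-enriched gene for which the study removed neurons with high counts, averaged 562 ± 440 counts with Uts2 and 776 ± 460 without; 77.8% of the 18 neurons with the fewest Apoe counts held Uts2 and 47.1% of the 17 with the most. The 9 astrocyte markers summed to 10.6 to 76.5 per 10000 (median 26.9) with Uts2 and to 15.7 to 183.98 (median 36.5) without. Of the 9, 1 was past 2-fold, Slc1a2, higher without Uts2. Over the 45 neurons Slc1a2 (-1.24) stayed past 2-fold and Aldh1l1 (1.32) was past 2-fold higher with Uts2. Xist, the transcript of the inactive X chromosome, was more often detected with Uts2. A read of it was present in 11 of 32 neurons with Uts2 and 3 of 20 without, a log2 ratio of 1.95. Over the 45 neurons it was in 10 of 31 and 1 of 14 (3.11). Xist passed the filter only through the group with Uts2 and so had to differ. A read of a Y-linked gene was present in 20 of 32 and 13 of 20. Eif2s3y stood at 1.03, but Uty, Ddx3y and Kdm5d at 0.37, -0.24 and -0.19. Xist and Y-linked reads were both present in 4 of 32 and 1 of 20 neurons, and neither in 5 and 5. The part of these measures and of the number of detected genes in the results that follow was not tested, beyond the values without the neurons above 900 Apoe counts given where they bear on a gene.

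Most genes lay close to a ratio of 1 between the groups. After a filter for genes detected in 25% or more of either group's neurons, 11247 genes were left, with a median log2 ratio of group means (with over without Uts2, 0.1 per 10000 added to each) of -0.02 and quartiles of -0.36 and 0.37. Of these, 499 genes (4.44%) were past 2-fold and higher with Uts2, and 450 (4%) were past 2-fold and higher without it. A pair share of at least 70% was reached by 1.71% of genes and a share of at most 30% by 0.88% (99 genes). Over the 45 neurons, the corresponding counts among 10695 genes were 709 (6.63%), 450 (4.21%), 261 (2.44%) and 110 (1.03%), and 375 of the 499 and 250 of the 450 genes were past 2-fold in the same direction again. With totals that included Rn45s, the split of 499 higher and 450 lower became 277 and 22, and the median log2 ratio of all genes moved to 0.14. A gene that passed the filter only through its higher group had to differ, so these counts are a background for the genes named and no evidence of a difference.

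Several receptors for neurotrophic factors stood at higher levels with Uts2. These factors are the proteins from muscle, glia and nerve on which motor neurons depend around birth. Ret was detected in 32 of 32 neurons with Uts2 at 0.34 to 57.9 per 10000 (median 9.26) and in 19 of 20 without at 0 to 16.1 (median 4.40). The ranges overlapped, but in 84.4% of pairs the neuron with Uts2 held more Ret, and the means were 12.2 ± 10.1 and 4.55 ± 4.03 (log2 ratio 1.41). Leaving out the 7 low-marker neurons gave means of 12.6 ± 10 and 6.32 ± 3.50 and a pair share of 80.6% (log2 ratio 0.98). Ret lies at chr6:118151745-118197718 on the minus strand.

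Gfra1, the co-receptor through which Ret binds glial cell line-derived neurotrophic factor, showed the same order. Its median was 11 per 10000 with Uts2 (0.26 to 18.8) and 3.08 without (0 to 28.6). The highest Gfra1 level of all 52 neurons belonged to a neuron without Uts2, yet 2 of the 20 neurons without Uts2 exceeded the median of the 32. The neuron with Uts2 was higher in 83.3% of pairs, and in 78.6% over the 45 neurons (log2 ratio 1.18 over 52 and 0.74 over 45). Gfra1 is also among the laryngeal genes that the study picked from these same neurons.

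Ntrk3, the receptor for neurotrophin 3, had the largest ratio of the receptors. It ranged from 0 to 6.67 per 10000 with Uts2 (median 2.17) and from 0 to 2.07 without (median 0.25). Of the 32 neurons with Uts2, 17 were above every neuron without it. The log2 ratio was 2.05 over 52 neurons and 1.81 over 45. Cntfr, which binds ciliary neurotrophic factor, had means of 1.08 ± 0.72 and 0.47 ± 0.53 (log2 ratio 1.04, and 0.85 over the 45).

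Of the 16 neurotrophic factor receptors listed, 11 passed the filter, and 6 of these were past 2-fold and higher with Uts2, none lower, where 4.44% of all genes were past 2-fold in that direction. The other 2 of the 6 were Ngfr, the low-affinity neurotrophin receptor (log2 ratio 1.06), and Lifr, which pairs with Cntfr (1.06). The median log2 ratio of the 11 was 1.04 beside -0.02 over all genes. Over the 45 neurons only Ntrk3 stayed past 2-fold, all 11 were above 0 and the median was 0.74 beside 0.05. Gfra2, the co-receptor for neurturin, stood at -0.20 over 52 neurons.

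Peptide precursors gave a divided picture. Pnoc, the nociceptin precursor at chr14:65400673-65425472 on the minus strand, ranged from 0 to 10.4 per 10000 with Uts2 (median 3.12) and from 0 to 11.9 without (median 0.54), and 30 of the 32 neurons with Uts2 were above the median of the 20. The means were 3.94 ± 2.70 and 1.53 ± 2.81 (log2 ratio 1.31, pair share 82.3%, and 1.07 with 79.4% over the 45). Cartpt, the precursor of cocaine- and amphetamine-regulated transcript peptides, was detected in 29 of 32 neurons with Uts2 (90.6%, exact interval 75.0 to 98%) and in 9 of 20 without (45%, 23.1 to 68.5%). These intervals, too, cover counting of neurons only, with no animal named, and test no difference. The log2 ratio of Cartpt was 1.43 over 52 neurons and 1.07 over 45, where 28 of 31 and 7 of 14 neurons held it.

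Pdyn, the dynorphin precursor, had a median of 5.48 per 10000 with Uts2 (0 to 63) and 0.35 without (0 to 10.8). The log2 ratio of means was 2.33, or 1.93 over the 45 neurons and 2.47 without the highest neuron of each group, and 6 of the 32 exceeded every neuron without Uts2. Adcyap1, which encodes pituitary adenylate cyclase-activating peptide, had medians of 0.99 and 0.19 and log2 ratios of 1.94 and 1.95. Neither Pdyn nor Adcyap1 was on the list of laryngeal genes taken from the study.

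The calcitonin gene-related peptides did not separate the groups once the low-marker neurons were left out. Calca, at chr7:114631478-114636357 on the minus strand, was detected in 32 of 32 and 18 of 20 neurons, with medians of 11.7 (0.41 to 130.2) and 5.71 per 10000 (0 to 52.5) and a log2 ratio of means of 0.93. Over the 45 neurons the median with Uts2 was 12.3 and that without was 18, the reverse of the means (26.5 ± 31.8 and 19 ± 16.6), and the pair share was 51.8%. Calcb behaved alike, with a log2 ratio of 0.52 over 52 neurons and 0.06 over 45 (pair share 48%). Trh, the thyrotropin-releasing hormone precursor, was detected in 14 of 32 and 11 of 20 neurons, and its log2 ratio of 1.07 (0.68 over the 45) came with a pair share of 49.1%.

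Across the 36 peptide precursors listed, 19 passed the filter, 7 of them past 2-fold higher with Uts2 and 1, Sst (somatostatin, log2 ratio -1.21), past 2-fold lower, against backgrounds of 4.44% and 4%. The 7 were Pnoc, Cartpt, Pdyn, Adcyap1, Trh, Nts (neurotensin, 1.26) and Penk (proenkephalin, 1.09), and Nts had a pair share of 45.2%. Over the 45 neurons 21 passed, 6 of them past 2-fold higher and 1 lower, against 6.63% and 4.21% of all genes; Trh and Penk (0.50) were no longer past 2-fold. Of Calca, Calcb, Pnoc, Trh and Cartpt, a neuron with Uts2 held a mean of 4.25 ± 0.62 and a neuron without it 3.5 ± 1.5, and 2 of the 20 neurons without Uts2 held none. The 17 genes of peptide processing and granins leaned the same way by small steps: 16 were above 0 and none past 2-fold (median 0.31, and 0.30 with 13 above 0 over the 45), with Vgf at 0.67 and Chga at 0.67, 2 members of the granin family.

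**Figure D3:**
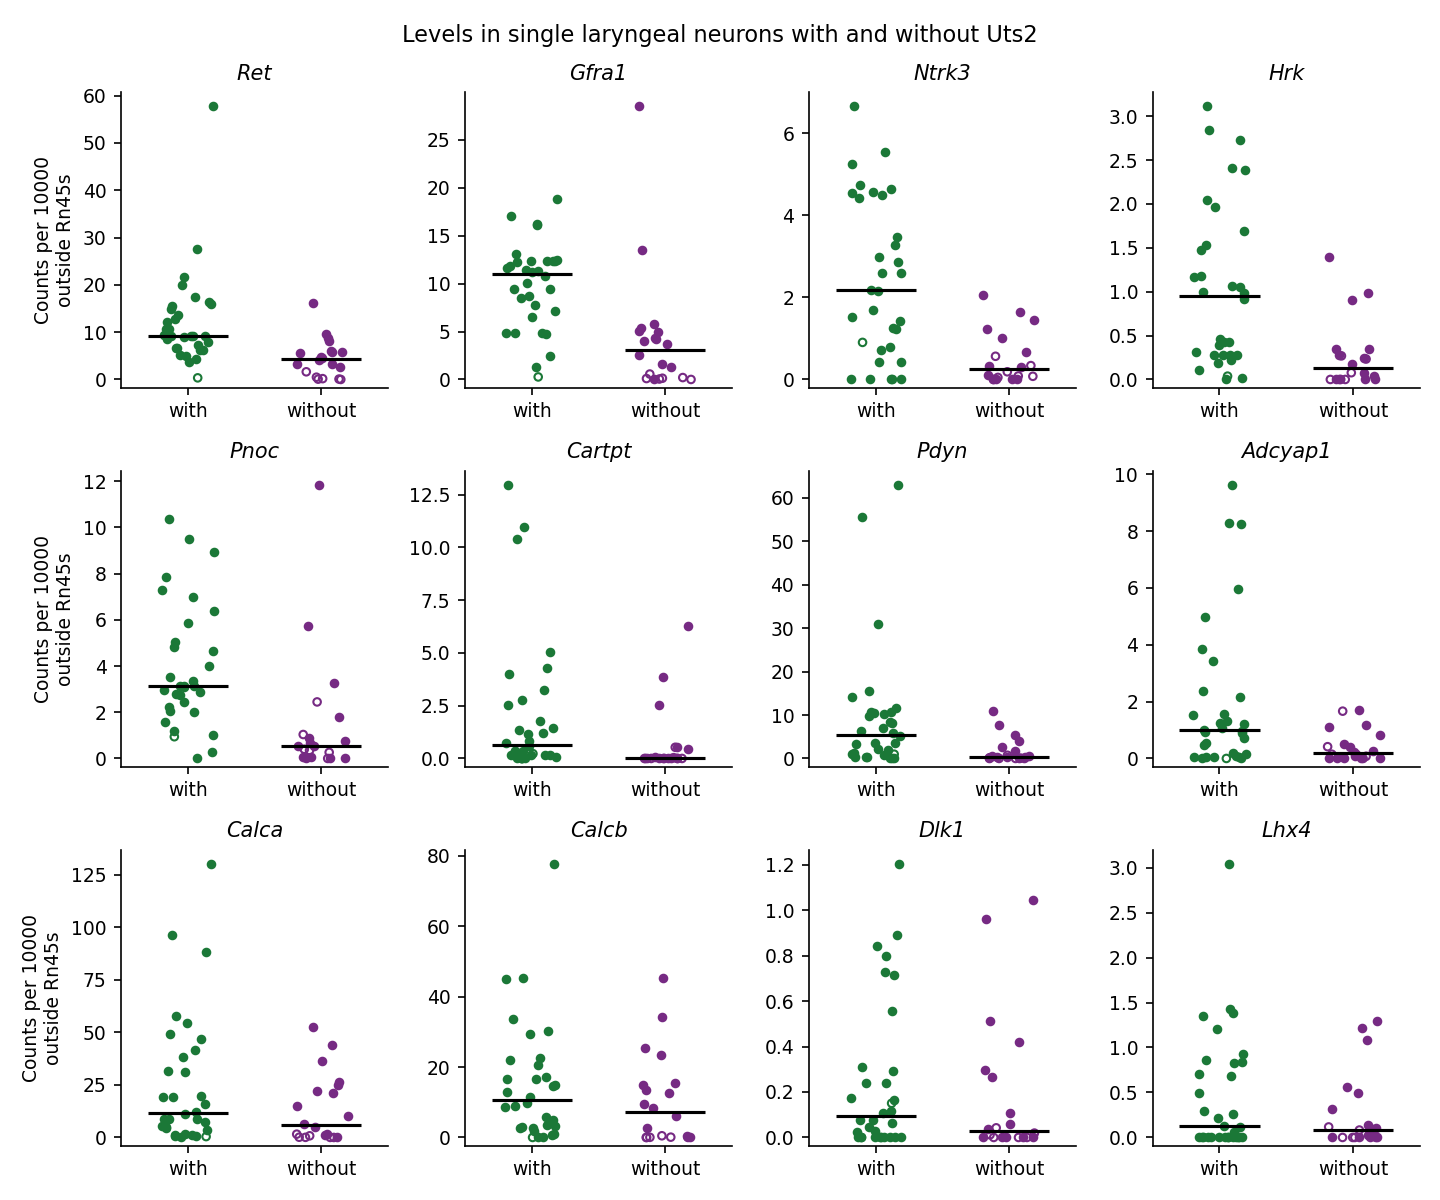
Levels of 12 genes in each laryngeal neuron (vertical axes, counts per 10000 outside Rn45s) for the 32 neurons with and 20 without Uts2; each point is a neuron, black bars are medians over all neurons of the group, and open points are the 7 neurons low in motor neuron markers. Medians are higher with Uts2 in every panel, but among filled points Calca, Calcb, Dlk1 and Lhx4 overlap (pair shares over the 45 neurons of 51.8%, 48%, 49.5% and 48.8%), while for Ret, Gfra1, Ntrk3, Hrk and Pnoc they are between 78.6% and 80.6%.

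Uts2b, the paralog of Uts2 that encodes urotensin II-related peptide, was detected in 10 of 32 neurons with Uts2 and 2 of 20 without, at means of 0.113 ± 0.234 and 0.053 ± 0.230 per 10000. The receptor gene Uts2r was detected in 3 of 32 and 1 of 20 neurons and did not pass the filter. All 7 genes listed downstream of the receptor passed and none was past 2-fold; 4 of them were above 0, with Gnaq lowest at -0.33 and Plcb1 highest at 0.47.

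The laryngeal identity genes as a list followed the low-marker neurons in part. Of 38 genes, chosen from comparisons of these same neurons and so no independent evidence of a direction, 37 were above 0 over 52 neurons with 12 past 2-fold higher with Uts2 (median log2 ratio 0.62, where 4.44% of all genes were past 2-fold), and 30 were above 0 with 6 past 2-fold over the 45 (median 0.42, background 6.63%). The 6 were Prss12, which encodes the synaptic protease neurotrypsin (2.15), the nuclear receptor gene Esrrg (1.77), Timp3, an inhibitor of metalloproteases (1.42), Pou3f1, a transcription factor gene (1.10), Pnoc and Cartpt. Dlk1, a regulator of motor neuron fate, stood at 0.26 over 52 neurons and -0.06 over 45, and Lhx4, a motor neuron homeobox gene, at 0.58 and 0.27.

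The cardiac neuron genes moved with the same 7 neurons, and so did the cholinergic gene Slc18a3. Of 16 cardiac genes that passed, likewise picked by the study on these neurons, 3 were above 0 over 52 neurons (median -0.30), and 8 of 16 over the 45 (median -0.04); the splicing regulator gene Celf6, at -1.51 and -1.59, was the only member past 2-fold in either. Slc18a3 ran from 0.34 to 45.6 per 10000 with Uts2 (median 17) and from 0.019 to 25.5 without (median 11.9), a log2 ratio of 0.63. Among the 45 neurons its medians were 17.5 and 16.9 and its log2 ratio 0.19. Slc18a3, like Chat and Slc5a7, is one of the 5 markers that defined the 7 neurons, so its fall was built in. Of the 6 cholinergic genes that passed, 4 were above 0 over 52 neurons (median 0.60) and 4 over the 45 (median 0.21). Chat and Slc44a1 stood at -0.08 and -0.75 over the 52.

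**Figure D4:**
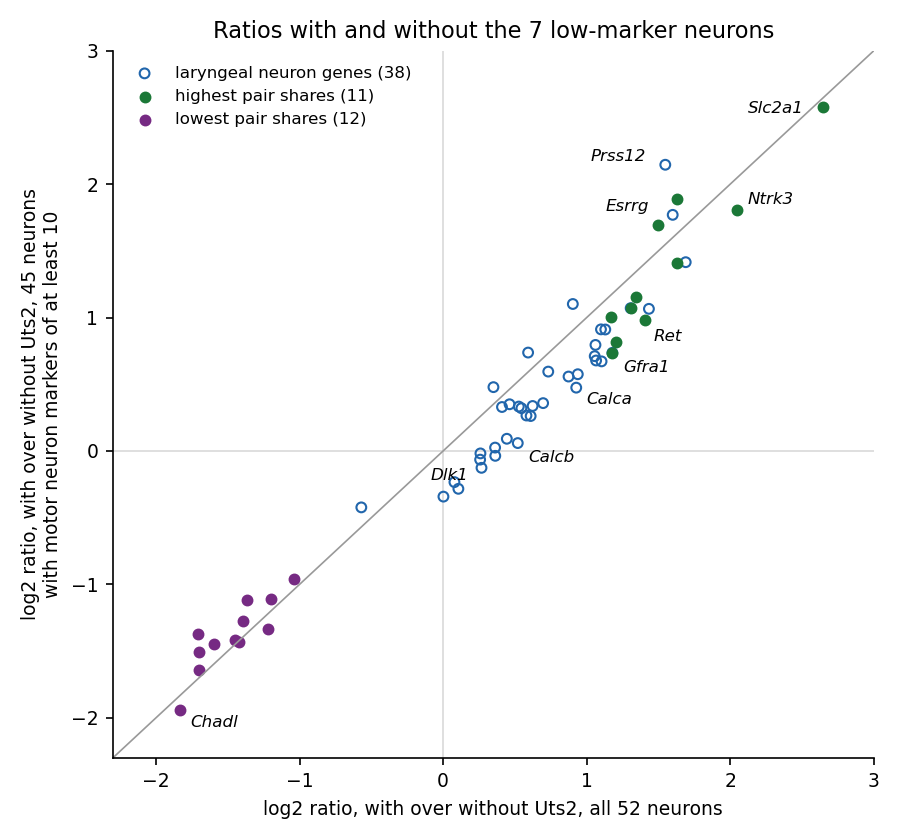
Log2 ratio of group means, with over without Uts2, over all 52 neurons (horizontal) and over the 45 neurons with motor neuron markers (vertical), for the 38 laryngeal neuron genes (blue rings) and the 11 and 12 genes named at the high and low ends of the pair share (green and purple); the diagonal marks equal values. Calca, Calcb and Dlk1 drop toward 0 on the vertical axis, while Ntrk3, Slc2a1, Esrrg and Prss12 stay above 1.5.

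Among genes past 2-fold with the same sign in the neurons with more and with fewer detected genes, 11 of the 12 with the highest pair shares (78.3 to 84.4% in these 11) were Ret, Cdh13, Gfra1, Pnoc, Hrk, Ntrk3, Fgf18, Slc2a1, Tmed9, Lrrcc1 and Atp2b4. They were named because of these values, which therefore describe them and test nothing.

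The members of the 11 not yet described belong to several functions. Hrk, a member of the BCL2 family that promotes cell death, had means of 1.04 ± 0.93 and 0.27 ± 0.39 (log2 ratio 1.63). Slc2a1, the glucose transporter of many cells including endothelium, was detected in 23 of 32 and 4 of 20 neurons (log2 ratio 2.65). Its means were 0.81 ± 1.88, with the highest neuron at 10.3, and 0.046 ± 0.101. Of the 32 neurons, 16 were above every neuron without Uts2. Slc2a1 passed the filter only through the group with Uts2 and so had to differ. Fgf18, a fibroblast growth factor gene, was detected in 26 of 32 and 8 of 20 (1.34), and Tmed9, a cargo receptor of the early secretory pathway, in 30 and 14 (1.63). All 11 kept their sign over the 45 neurons and 8 stayed past 2-fold there. In the cardiac neurons, which the rule had not used, the 13 neurons with Uts2 had higher means than those without for all 11 genes (median log2 ratio 0.43), where 46.4% of all genes were above 0. The pair shares there were 46.7% to 67.4%, with Hrk (46.7%) and Tmed9 (48.9%) under 50%. These 13 neurons differed in other genes too, with Calca at 2.16, the microglia gene C1qb at 2.70, Xist at 1.63 and Cartpt at -0.96. No animal is named for them, so these values describe the 13 neurons and test nothing.

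The 12 genes at the other end, with pair shares of 19.2 to 25%, were Ing4, Wbp11, Pcdh18, Ntm, Smndc1, Chadl, Mgll, Rnaseh2c, Amdhd2, Igfbp5, Qdpr and Mpped2. Ing4, a subunit of a histone acetyltransferase complex, was detected in 20 of 32 neurons with Uts2 (median 0.090 per 10000) and in 18 of 20 without (median 0.87), a log2 ratio of -1.70. Pcdh18, a protocadherin gene, was detected in 12 of 32 and 15 of 20 (-1.70), and Ntm, a cell adhesion gene of the IgLON family, in 24 of 32 and 20 of 20 (-1.71). Wbp11 and Smndc1, both linked to splicing, stood at -1.37 and -1.45. All 12 kept their sign over the 45 neurons, 11 of them past 2-fold. With totals that included Rn45s, only Ntm (-1.37) and Chadl (-1.18) stayed past 2-fold over 52 neurons and only Chadl (-1.23) over 45, against 10 and 8 of the 11 higher genes. In the cardiac neurons 5 of the 12 were above 0 and 7 below.

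Of these 23 genes, 4 of the higher and 6 of the lower set share exon sequence with another annotated gene, among them Gfra1 and Slc2a1 above and Ing4, Wbp11, Chadl and Rnaseh2c below; counting by strand is not stated, so reads there could belong to either gene. Most of the 12 lower genes had mean levels under 1 per 10000 in both groups. Without the 14 neurons above 900 Apoe counts, which left 26 with and 12 without Uts2, 9 of the 11 higher and 12 of the 12 lower genes stayed past 2-fold, with Ret at 1.25, Ntrk3 at 1.95 and Ing4 at -1.42. Gfra1 (0.91) and Cdh13 (0.80) did not, and Calca and Calcb stood at 0.44 and 0.07.

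The genes whose levels ran most like Uts2 over the 52 neurons, by Spearman's rank correlation, were largely the same genes, since Uts2 is at 0 in 20 of the neurons. The correlation was 0.62 for Hrk, 0.61 for Ret, 0.61 for Pnoc, 0.57 for the cadherin gene Cdh6, 0.56 for Prune2 and 0.52 for Prss12. The neurons share depth and library preparation, and the correlation is given as a description only.

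Within the 31 neurons that held both Uts2 and the motor neuron markers, the amount of Uts2 ran against Calca. In the 10 neurons with the most Uts2 (1.40 to 8.38 per 10000) Calca had a median of 2.56 per 10000, against 14.3 in the middle 10 and 19.3 in the 11 with the least (0.016 to 0.34). Spearman's correlation of the Uts2 and Calca levels was -0.46 over the 31 neurons, and that of Uts2 and Calcb -0.37. In the 4 neurons with over 5 Uts2 counts per 10000, Calca stood at 0.66, 0.57, 5.17 and 1.33, below the median of 19 in the other 27, and Dlk1 had 0 reads in all 4. Of the other 27, 5 had Calca at 5.17 or less and 6 had 0 reads of Dlk1, whose median there was only 0.11. The 4 neurons had a median of 5034 detected genes.

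Pnoc, Esrrg, Prss12, Hrk, Cartpt, Timp3 and Ret ran the other way, with correlations of 0.45, 0.45, 0.43, 0.40, 0.37, 0.32 and 0.29, and Gfra1 stood at 0.12. Pnoc, Prss12, Hrk, Ret and Gfra1 had been named for their correlation with Uts2 over all the laryngeal neurons, these among them. Their values here therefore describe them and test nothing. From the lowest to the highest Uts2 levels, the median of Pnoc was 2.80, 3.13 and 5.35 per 10000, that of Prss12 1.03, 2.01 and 3.80, and that of Timp3 2.97, 4.02 and 8.17. The medians of Cartpt (0.71, 0.25 and 2.88), Hrk (0.42, 1.12 and 1.08) and Ret (7.27, 11.8 and 10.6) did not rise at each step. Esrrg was at 2.79 to 4.18 in the 4 neurons highest in Uts2, and none of the other 27 reached 2.79 (highest 2.25). The neurons highest in Uts2 were also the shallower ones, with a median of 466844 counts outside Rn45s against 647813 in the 11 lowest, and with fewer detected genes (medians 6967 and 8509); the part of depth in these relations was not tested.

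**Figure D5:**
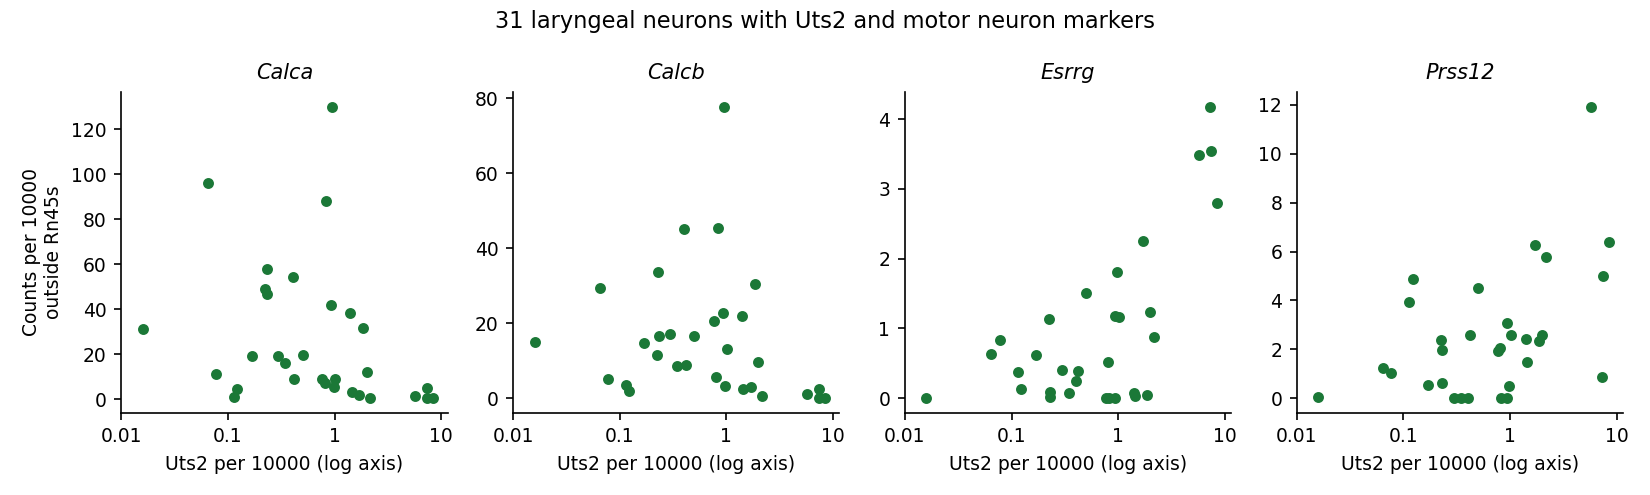
Levels of Calca, Calcb, Esrrg and Prss12 (vertical axes, counts per 10000 outside Rn45s) against the Uts2 level (horizontal log axis, same unit) in the 31 laryngeal neurons with Uts2 and motor neuron markers; each point is a neuron. The 4 neurons above 5 in Uts2 have Calca of 5.17 or less and Esrrg of 2.79 or more.

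Ion channel genes and GABA and glycine receptor genes leaned higher with Uts2 by small steps, with few members past 2-fold. Of 23 sodium, calcium and HCN channel genes that passed, 17 were above 0 (median 0.37). Of 30 potassium channel genes 24 were (median 0.29), beside a median of -0.02 over all genes. Over the 45 neurons these were 15 of 23 (0.37) and 21 of 27 (0.39), beside 0.05. Among the 23 sodium, calcium and HCN channel genes, 2 were past 2-fold higher with Uts2 and 1 lower, against backgrounds of 4.44% and 4%. Scn8a, a sodium channel alpha subunit, had medians of 3.27 with Uts2 and 0.93 without (log2 ratio 1.20, and 0.92 over the 45). Hcn2, a hyperpolarization-activated channel, stood at 1.47 and 1.46, and Cacnb4, an auxiliary calcium channel subunit, at -1.33 and -0.91. The calcium channel gene Cacna1h was past 2-fold only over the 45 (0.87 and 1.42). Of 30 potassium channel genes 2 were past 2-fold higher, Kcnh7 (1.04) and Kcnq5 (1.13), of which Kcnh7 did not pass the filter over the 45 neurons, and Kcnk3, a leak channel, stood at 0.96. Of 19 GABA and glycine receptor genes 17 were above 0 (median 0.35), with the alpha 2 subunit gene Gabra2 the single member past 2-fold (1.10). Over the 45, Gabra2 (1.41) and Gabrg1 (1.51) were past 2-fold higher and Gabra3 (-1.23) lower, with 16 of 19 above 0 (median 0.40).

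Housekeeping groups lay slightly below the median of all genes. Of 32 nuclear oxidative phosphorylation genes 30 were below 0 (median -0.21 beside -0.02 over all genes). With totals that included Rn45s, which moved all genes up to a median of 0.14, their median was 0.10 and 22 of the 32 were above 0. Of 33 cytosolic ribosomal protein genes 32 were below 0 over 52 neurons (median -0.30, or -0.07 with Rn45s in the totals). Over the 45 neurons 11 of 34 were above 0 (median -0.07 beside 0.05 over all genes, or 0.06 beside 0.14 with Rn45s in the totals). Rpl3 was the member with the lowest pair share, 20.5%, at means of 1.40 ± 1.03 and 2.34 ± 1.04 per 10000. The tubulin gene Tuba1a and the growth cone gene Gap43 had log2 ratios of -0.45 and -0.41, or -0.24 and -0.21 over the 45 neurons.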

How the data were processed

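Single neurons were aspirated, amplified by Smart-seq2 and sequenced; per the labels reads were aligned to mm10 with STAR 2.6.1d. The authors had trimmed reads, aligned in a pair of passes and removed neurons with few aligned reads or high Apoe counts; the counting program is not given in the sources used here. The deposited count table holds raw counts per gene (24029 genes), and neuron types come from the deposited annotation. The second deposited table, named CPM, was not used because its columns do not sum as that unit requires. The laryngeal neurons, rule and gene lists were chosen with earlier results of these data known.

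Counts were divided by each neuron's total outside Rn45s (118492 to 1821510) and multiplied by 10000. Contrasts were log2 ratios of group means plus 0.1, and pair shares. Thinning was the exact hypergeometric expectation at 260000 counts. Intervals were Clopper-Pearson at 95%. Each sample is 1 neuron with no animal named, although the study used several mice, so no test across samples was run. Named genes were Uts2, Uts2b and Uts2r, 7 laryngeal genes, and up to 4 per list by pair share for 26 lists. The 10 highest by Spearman's correlation with Uts2 were named too. Further genes past 2-fold had to have the same sign in the neurons with more and with fewer detected genes. Of these, the 12 highest and 12 lowest by pair share were named. Ngfr, Lifr, Gfra2, Nts, Penk, Sst, Pou3f1, Celf6, Hcn2, Kcnh7, Kcnq5, Gad1, Gnaq, Ddx3y, Gabrg1, Gabra3 and Aldh1l1 were named after their values were seen. A few genes chosen by this rule or held in the lists and marker sums are not reported here and were left out of them. Gene positions are from GENCODE vM21. Python 3.11.15, numpy 2.4.6, scipy 1.17.1 and pandas 2.3.3 were used, with edgeR 4.0.16 and DESeq2 1.42.0 for alternative scalings only. The contrast was tested on simulated data.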

Additional observations from a re-analysis of the deposited data

How the results depend on the processing

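No paired analysis was possible because each sample is a single neuron, no label names its animal, and no test was run. The number of neurons with Uts2, the depth and detected-gene differences and the Rn45s difference moved by less than the spread under the alternatives run for them. The counts of genes moved more. Of 499 genes past 2-fold higher with Uts2 and 450 higher without, totals including Rn45s gave 277 and 22 (and 29 rather than 99 genes at a pair share of at most 30%), a pseudocount of 1 gave 7 and 4, and a pseudocount of 0.01 gave 1285 and 1154, both by construction on low genes. Leaving out the neurons above 900 Apoe counts gave 786 higher with Uts2 and 303 genes at a pair share of at most 30%. Only neurons at or above 260000 counts gave 190 at that share, and leaving out the highest neuron of each group for each gene gave 218 higher without Uts2; the cause was not tested. Of 47 named genes past 2-fold, 46 kept their sign under all 9 alternatives run and 16 stayed past 2-fold under all of them. Mbp, a myelin gene, reversed to 0.57 without the neurons above 900 Apoe counts. The division at 10 per 10000 of the motor neuron markers was added after the data were seen.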

Other observations

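Markers of other cells besides astrocytes were low in most neurons on both sides of the split. Summed over 8 microglia markers, levels ran from 0 to 24.8 per 10000 with Uts2 (median 0.81) and from 0 to 17.2 without (median 1.04), and over 7 vascular markers from 0 to 48.8 (median 0.046) and from 0 to 24.3 (median 0.032). The microglia gene C1qa was the single microglia marker past 2-fold, higher without Uts2 (-1.06). Over the 45 neurons with motor neuron markers C1qa stood at -0.51 and no microglia marker was past 2-fold. The median log2 ratio of the microglia markers that passed moved from -0.22 to 0.27. Oligodendrocyte lineage markers ran from 0 to 17.2 (median 2.09) and from 0 to 38.3 (median 2.38), with the myelin gene Mbp past 2-fold higher without Uts2 (log2 ratio of -1.34, pair share of 40.9%) and Cspg4, a proteoglycan gene of oligodendrocyte precursors, past 2-fold higher with it (1.09).

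Several other groups had few or no members past 2-fold, where 4.44% of all genes were past 2-fold higher with Uts2 and 4% lower. Of 10 cranial motor neuron transcription factors none was (median log2 ratio 0.19), of 26 synaptic vesicle release genes 1 was higher and 1 lower with Uts2 (median 0.14), of 23 glutamate receptor genes 1 was higher (median 0.22), and of 18 immediate early and stress genes 1 was lower (median 0.05). Of 25 peptide and monoamine receptors 4 were higher. Among them was Tacr3, the neurokinin 3 receptor, at means of 0.90 ± 2.14 and 0.15 ± 0.35 per 10000 (log2 ratio 2.01). Ghsr, the ghrelin receptor, was another, in 10 of 32 and 1 of 20 neurons. It passed the filter only through the group with Uts2 and so had to differ. Of 6 nicotinic and muscarinic receptors that passed 2 were higher, among them Chrm2 (1.29), of 16 alpha, fast and slow motor neuron genes 3 were higher and 1 lower, and of 18 neurofilament and axonal cytoskeleton genes none was past 2-fold (median -0.11 beside -0.02 over all genes, or 0.11 beside 0.14 with totals that included Rn45s). Among markers of inhibitory and excitatory neurons, 1 of 6, Gad2, was past 2-fold, lower with Uts2 (-1.18, and -0.44 over the 45 neurons with motor neuron markers). Over those 45, 2 of the 6 were past 2-fold higher with Uts2: Slc17a6 (1.24, and 0.35 over 52) and the glycine transporter gene Slc6a5, found in 12 of 31 and 0 of 14 neurons, whose ratio of 2.03 depends on the 0.1 added (0.77 over 52).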
